A study of Arabidopsis thaliana with 4 samples.

Results

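Small RNA reads were examined at 6 loci of Arabidopsis thaliana that form the miR160 module, the auxin response factor genes ARF10 (AT2G28350), ARF16 (AT4G30080) and ARF17 (AT1G77850) and the miRNA genes MIR160A (AT2G39175), MIR160B (AT4G17788) and MIR160C (AT5G46845). They were chosen by locus identifier out of 33602 loci in the table, and all 6 were found there. The 4 genotypes were rdr6-11 ein5-1 ski2-3 (the triple mutant), ein5-1 ski2-3, rdr6-11, and the wild type Col-0. Each was sampled as aerial tissue at 18 days, from plants kept at 22 °C with 16 h of light and 8 h of dark, and the RNA kept was shorter than 200 nt. EIN5 is a cytoplasmic exonuclease that degrades RNA from its 5′ end, SKI2 is a helicase that feeds RNA to the cytoplasmic exosome, and RDR6 is an RNA-dependent RNA polymerase that copies transcripts into double-stranded precursors of small interfering RNAs.

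miR160 is among the oldest miRNAs of land plants. Loaded into AGO1, it guides the cleavage of mRNAs of the ARF10, ARF16 and ARF17 group, which encode repressing auxin response factors, and plants with miR160-resistant copies of these genes have defects of leaves, roots and flowers. In Arabidopsis ARF10 and ARF16 act in root cap differentiation, and ARF17 acts in adventitious rooting and pollen wall formation. A cleaved mRNA is normally cleared through 5′ decay of one fragment and exosomal decay of the other, and a fragment that persists can be copied by RDR6.

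The mature miRNA and its hairpins are shown because they decide how reads can be assigned among the MIR160 genes. The mature sequence of 21 nt was the same at all 3 genes in the RefSeq annotation of TAIR10.1, with the seed (bases 2 to 8) in capitals. No other locus among 428 annotated mature miRNAs carried that seed.
miR160: uGCCUGGCucccuguaugcca
In the hairpins the same mature miRNA stands in capitals. MIR160A lies at chr2:16340279-16340363 (plus strand), MIR160B at chr4:9888982-9889070 (plus strand) and MIR160C at chr5:19009094-19009182 (minus strand), and none overlaps another annotated gene.
MIR160A: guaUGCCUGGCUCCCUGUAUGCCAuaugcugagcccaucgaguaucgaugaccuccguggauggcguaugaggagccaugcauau
MIR160B: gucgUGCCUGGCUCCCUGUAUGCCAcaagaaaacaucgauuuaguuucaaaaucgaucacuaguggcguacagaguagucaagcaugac
MIR160C: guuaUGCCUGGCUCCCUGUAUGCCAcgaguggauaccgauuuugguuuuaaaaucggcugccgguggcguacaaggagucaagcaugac
The opposite arm differs between the genes, as its annotated products from MIR160A and MIR160C show with their own seeds in capitals.
miR160a-3p: gCGUAUGAggagccaugcaua
miR160c-3p: cGUACAAGgagucaagcauga
A read of the mature miRNA therefore matches 3 places in the genome, and which gene it was counted at depends on the counting, while a read of the opposite arm can be placed. Of the 21-nt windows of the hairpins, 3 of 65 at MIR160A, 2 of 69 at MIR160B and 4 of 69 at MIR160C occur elsewhere in the genome as well.

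The target sites are shown because they set these 3 genes apart from other transcripts. When each window of 21 nt in the annotated mRNAs of 31342 nuclear genes, pseudogenes included, was compared with the perfect complement of miR160, only 3 genes had a window with at most 4 mismatches, and they were ARF17, ARF10 and ARF16. That is 0.00957% of the genes searched. The sites are given as DNA of the mRNA strand, with bases equal to the perfect complement of miR160 in capitals, so a G:U pair stands in lower case.
ARF10 (chr2:12115741-12115761, plus strand): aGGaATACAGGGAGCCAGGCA
ARF16 (chr4:14704141-14704161, minus strand): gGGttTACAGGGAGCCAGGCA
ARF17 (chr1:29274189-29274209, plus strand): TGGCATgCAGGGAGCCAGGCA
All of these sites are in coding sequence, starting at coding base 1329 of 2004 in ARF10 (exon 2), 1329 of 2013 in ARF16 (exon 3) and 1317 of 1791 in ARF17 (exon 2). Counted from the 5′ end of miR160, with the miRNA base first and the base that would pair with the site last, the differences were G18U and A21U for ARF10, U17A, G18A and A21C for ARF16, and U15C for ARF17. U15C at ARF17 and G18A at ARF16 leave a G:U pair. With G:U pairs not counted as pairs, pairing ran unbroken over the first 17 bases of miR160 at ARF10, 16 at ARF16 and 14 at ARF17. At ARF17 the G:U pair was the only difference, so with it counted the whole of miR160 was paired. The other 20 genes of the ARF family had no window with fewer than 7 mismatches, and their best windows had 7 to 11.

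The table held 877589 reads for the triple mutant, 621515 for ein5-1 ski2-3, 878632 for rdr6-11 and 808276 for Col-0, so that 1 read is worth 1.14, 1.61, 1.14 and 1.24 reads per 1000000 table reads (RPM) in these libraries. With 1 library per genotype there is no replicate spread and no test, whether the libraries came from pooled plants is not given in the sources used here, and intervals in parentheses are exact 95% intervals that cover counting error only. The mutated genes themselves had 0 to 4 reads in each library and could not check the labels. Trans-acting siRNA loci, whose siRNAs depend on RDR6, took 0.0518% of reads in the triple mutant, 2.50% in ein5-1 ski2-3, 0.0126% in rdr6-11 and 7.14% in Col-0. All 7 leaf marker genes had reads in every library, and their summed level was 16962 RPM in the triple mutant, 1989 RPM in ein5-1 ski2-3, 6791 RPM in rdr6-11 and 2309 RPM in Col-0, with most of these reads at the photosystem gene LHCA4. In each library 2 of 4 root genes were at 0 reads and the sum was 8.04 to 35.3 RPM, and the 3 flower genes summed to 0 to 11 reads. Fewer cells of a type and less small RNA per cell cannot be told apart in such samples.

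Among the ARF trio ARF10 had the most reads in ein5-1 ski2-3, and its level there stood above that in the other libraries. It held 10 reads in the triple mutant (11.4 RPM, 5.46 to 21.0), 158 in ein5-1 ski2-3 (254 RPM, 216 to 297), 5 in rdr6-11 (5.69 RPM, 1.85 to 13.3) and 10 in Col-0 (12.4 RPM, 5.93 to 22.8). The ein5-1 ski2-3 library was the high one, and the intervals of the other 3 libraries overlapped one another. Per length of locus, as the authors' RPKM, ein5-1 ski2-3 had 98.6 at ARF10, 3.01 at ARF16 and 4.04 at ARF17.

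ARF16 held 9 reads in the triple mutant (10.3 RPM, 4.69 to 19.5), 6 in ein5-1 ski2-3 (9.65 RPM, 3.54 to 21.0), 2 in rdr6-11 (2.28 RPM, 0.276 to 8.22) and 1 in Col-0 (1.24 RPM, 0.0313 to 6.89). The higher counts were in the 2 libraries with the decay mutations, and all of the intervals overlapped. ARF17, the gene with the closest match to miR160, held 4 reads in the triple mutant (4.56 RPM, 1.24 to 11.7), 8 in ein5-1 ski2-3 (12.9 RPM, 5.56 to 25.4), 1 in rdr6-11 (1.14 RPM, 0.0288 to 6.34) and 3 in Col-0 (3.71 RPM, 0.765 to 10.8). Here too the intervals overlapped. In the 4 comparisons given next, no difference was detectable at this depth for either gene alone. In the remaining pairs of libraries, added after the values were seen, ARF16 was 8.29-fold higher in the triple mutant than in Col-0 (1.15 to 363) and ARF17 was 11.3-fold higher in ein5-1 ski2-3 than in rdr6-11 (1.52 to 502), both resting on 1 read in the lower library. The order of the ARF trio by number of mismatches to miR160 was ARF17, ARF10, ARF16, and by reads in ein5-1 ski2-3 ARF10 came first. ARF17 and ARF16 could not be ordered there, at 8 and 6 reads with overlapping intervals, and in the triple mutant ARF16 had more reads than ARF17.

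**Figure D1:**
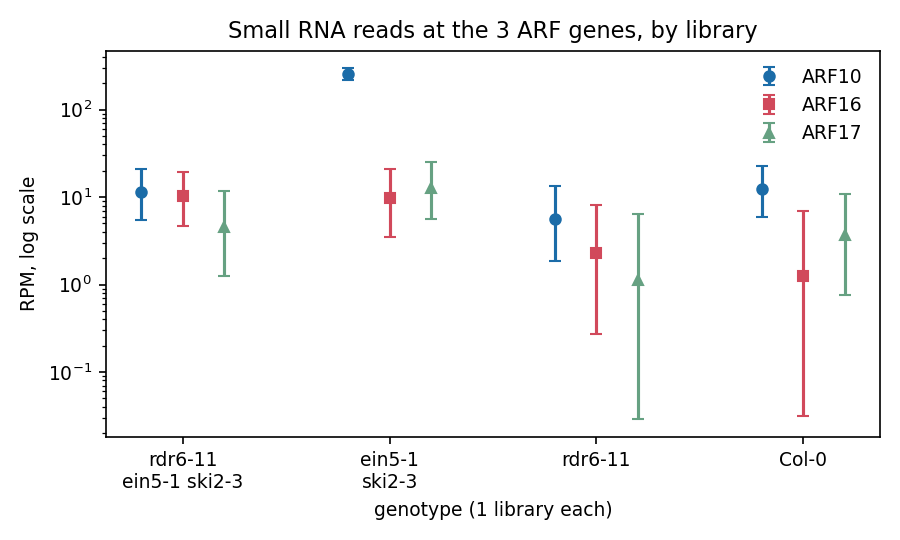
Reads per 1000000 table reads (RPM, log axis) at ARF10, ARF16 and ARF17 in each of the 4 libraries, with exact 95% counting intervals. ARF10 in ein5-1 ski2-3 (254 RPM) lies above every other point, and all others lie at or below 12.9 RPM.

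Between ein5-1 ski2-3 and Col-0, which asks what is gained when both decay routes are impaired, ARF10 was 20.5-fold higher in ein5-1 ski2-3 (10.9 to 43.7). A locus is called higher or lower here when it differed by at least 4-fold with 1 read added to each count and the higher library had at least 50 reads. Of the 6 members 4 reached 50 reads in this comparison, and ARF10, which did so only through ein5-1 ski2-3, was called higher. Calls were common, at 26.8% of 653 loci and 57.2% of 285 protein-coding genes, and 97 of these genes had a higher fold than ARF10. ARF16 had a ratio of 7.80 (0.947 to 359) and ARF17 of 3.47 (0.832 to 20.3), neither separable from 1. Their summed reads were 14 in ein5-1 ski2-3 and 4 in Col-0, a ratio of 4.55 (1.43 to 19.0).

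Few reads were left at ARF10 where RDR6 was mutated too. The triple mutant was 22.3-fold lower at ARF10 than ein5-1 ski2-3 (11.8 to 47.4), which again made it the 1 member called, against 14.3% of 736 loci and 22.3% of 412 protein-coding genes called lower. It reached 50 reads here too only through ein5-1 ski2-3. The pair of calls that ARF10 received, higher in ein5-1 ski2-3 against Col-0 but lower in the triple mutant against ein5-1 ski2-3, was shared by 77 loci, 70 of them protein-coding, and both comparisons share the ein5-1 ski2-3 library. ARF16 and ARF17 together held 13 reads in the triple mutant and 14 in ein5-1 ski2-3, a ratio of 0.658 (0.285 to 1.51). ARF10 made up 43.5% of the reads of the trio in the triple mutant (23.2 to 65.5), 91.9% in ein5-1 ski2-3 (86.7 to 95.5), 62.5% in rdr6-11 (24.5 to 91.5) and 71.4% in Col-0 (41.9 to 91.6).

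With the decay genes intact, no difference between rdr6-11 and Col-0 was detectable at the ARF genes at this depth. The rdr6-11 library against Col-0 gave a ratio of 0.460 for ARF10 (0.123 to 1.48), 1.84 for ARF16 (0.0958 to 109) and 0.307 for ARF17 (0.00584 to 3.82). In the absence of RDR6, the decay mutations gave 2.00 for ARF10 (0.624 to 7.47), 4.51 for ARF16 (0.933 to 42.9) and 4.00 for ARF17 (0.396 to 197), triple mutant over rdr6-11. The sum of ARF16 and ARF17 was 13 reads in the triple mutant and 3 in rdr6-11, a ratio of 4.34 (1.19 to 23.7). The ARF10 interval for the decay mutations with RDR6 mutated (0.624 to 7.47) lay below that with RDR6 intact (10.9 to 43.7), a difference that 1 library per genotype does not allow to be tested.

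At the MIR160 genes reads were fewer in both lines that carry the decay mutations. MIR160A, disrupted in the floral organs in carpels mutant, held 83 reads in the triple mutant (94.6 RPM, 75.3 to 117), 137 in ein5-1 ski2-3 (220 RPM, 185 to 261), 290 in rdr6-11 (330 RPM, 293 to 370) and 265 in Col-0 (328 RPM, 290 to 370). The intervals of rdr6-11 and Col-0 overlapped, and those of the triple mutant and ein5-1 ski2-3 lay below both and apart from each other.

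MIR160B held 63 reads in the triple mutant (71.8 RPM, 55.2 to 91.8), 97 in ein5-1 ski2-3 (156 RPM, 127 to 190), 237 in rdr6-11 (270 RPM, 236 to 306) and 257 in Col-0 (318 RPM, 280 to 359). The triple mutant was again lowest and ein5-1 ski2-3 next, with rdr6-11 and Col-0 overlapping. MIR160C held 113 reads in the triple mutant (129 RPM, 106 to 155), 150 in ein5-1 ski2-3 (241 RPM, 204 to 283), 284 in rdr6-11 (323 RPM, 287 to 363) and 268 in Col-0 (332 RPM, 293 to 374). For this gene the intervals of rdr6-11 and Col-0 lay just above that of ein5-1 ski2-3.

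**Figure D2:**
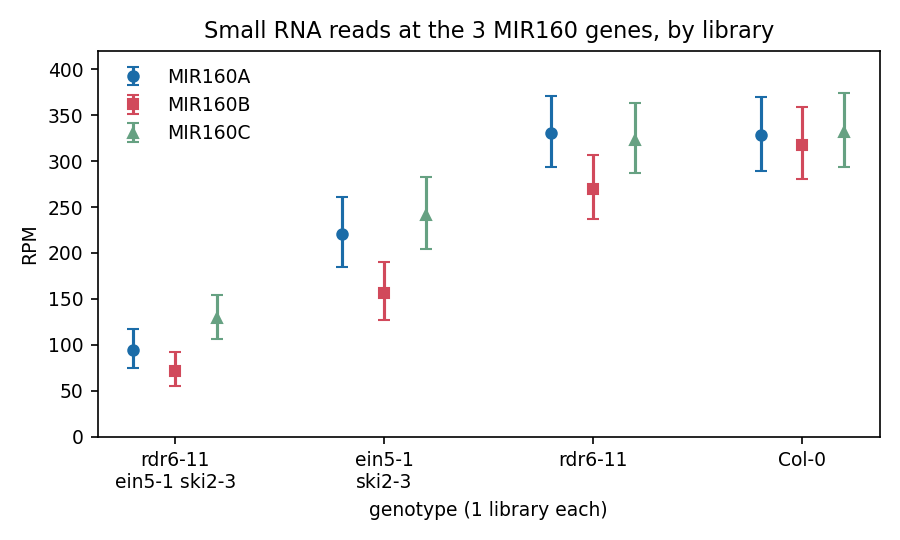
Reads per 1000000 table reads (RPM) at MIR160A, MIR160B and MIR160C in each of the 4 libraries, with exact 95% counting intervals. All 3 genes are lowest in the triple mutant (71.8 to 129 RPM) and next lowest in ein5-1 ski2-3 (156 to 241 RPM), and rdr6-11 and Col-0 overlap.

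The sum of the 3 genes does not depend on how reads of the shared mature miRNA were divided among them, provided that each read was counted once. How such reads were counted is not given in the sources used here, and if they were counted at every gene, the sum holds the same read several times and its intervals are too narrow. The sum came to 259 reads or 295 RPM (260 to 333) in the triple mutant, 384 reads or 618 RPM (558 to 683) in ein5-1 ski2-3, 811 reads or 923 RPM (861 to 989) in rdr6-11 and 790 reads or 977 RPM (910 to 1048) in Col-0. Of this sum MIR160B had 24.3% in the triple mutant (19.2 to 30.0), 25.3% in ein5-1 ski2-3 (21.0 to 29.9), 29.2% in rdr6-11 (26.1 to 32.5) and 32.5% in Col-0 (29.3 to 35.9), and MIR160C had 43.6% in the triple mutant (37.5 to 49.9), 39.1% in ein5-1 ski2-3 (34.2 to 44.1), 35.0% in rdr6-11 (31.7 to 38.4) and 33.9% in Col-0 (30.6 to 37.3). In Col-0 the parts could not be told from an even split, and in the triple mutant and ein5-1 ski2-3 the intervals of MIR160C lay above those of MIR160B.

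The MIR160 sum was 1.58-fold lower in ein5-1 ski2-3 than in Col-0 (1.40 to 1.79). The triple mutant was 2.09-fold lower than ein5-1 ski2-3 (1.78 to 2.46) and 3.13-fold lower than rdr6-11 (2.72 to 3.61). In rdr6-11 against Col-0 the ratio was 0.944 (0.855 to 1.04), with no detectable difference on table totals. Chloroplast loci took 27.1% of reads in the triple mutant, 9.81% in ein5-1 ski2-3, 21.2% in rdr6-11 and 9.57% in Col-0, and the leaf marker sum was highest in the triple mutant as well. With organelle, rRNA and tRNA loci left out of the totals, the triple mutant was 1.39-fold lower than ein5-1 ski2-3 and 2.66-fold lower than rdr6-11, while the ratio of rdr6-11 to Col-0 turned to 1.15 (1.04 to 1.27), which leaves out 1. Among the leaf markers, LHCA4 (11.6-fold, 10.9 to 12.5) and the Rubisco activase gene RCA (5.23-fold, 3.19 to 9.10) were called higher in the triple mutant than in ein5-1 ski2-3, against 14.3% of 412 protein-coding genes. The Rubisco small subunit gene RBCS1A was called higher in the triple mutant than in rdr6-11 (4.70-fold, 2.98 to 7.73), against 33.7% of 335, a call lost with edgeR's TMM scaling and with median-of-ratios scaling. The part of the leaf markers was not tested. No MIR160 gene reached the 4-fold rule in any of the 4 comparisons on table totals. In them, 26.7% of 90 miRNA genes were called lower in ein5-1 ski2-3 than in Col-0, and 1.25% of 80 in the triple mutant than in ein5-1 ski2-3. In rdr6-11 over Col-0 and in the triple mutant over rdr6-11 it was 0 of 88 and 0 of 85. Outside these comparisons, the triple mutant over Col-0 gave a ratio of 0.226 for MIR160B (0.169 to 0.298), beyond 4-fold. The MIR160 sum had 0.302 there (0.261 to 0.348). This pair was added after the values were seen, and the share of loci called in it was not computed. Over all loci 9.04% were called lower in ein5-1 ski2-3 than in Col-0, 3.9% in rdr6-11 than in Col-0 and 0.418% in the triple mutant than in rdr6-11, and 1.95% were called higher in rdr6-11 than in Col-0 and 16.4% in the triple mutant than in rdr6-11.

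Reads at miRNA genes as a whole took 31.2% of the triple mutant, 53.7% of ein5-1 ski2-3, 45.5% of rdr6-11 and 52.3% of Col-0, so MIR160 was also set against the other miRNA genes. Of all reads at miRNA genes MIR160 took 0.0946% in the triple mutant (0.0835 to 0.107), 0.115% in ein5-1 ski2-3 (0.104 to 0.127), 0.203% in rdr6-11 (0.189 to 0.217) and 0.187% in Col-0 (0.174 to 0.200). When libraries were scaled to the other miRNA genes, the triple mutant was only 1.22-fold lower than ein5-1 ski2-3, and 2.14-fold lower than rdr6-11. The shares and this scaling follow summed reads, not the typical miRNA gene. In ein5-1 ski2-3 over Col-0 the scaling shifted log2 folds by -0.04, while the median log2 fold of miRNA genes with at least 50 reads was -0.94.

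Within each comparison the order of miRNA genes by fold does not depend on the scaling. In the triple mutant over rdr6-11, no other miRNA gene of 85 had a lower log2 fold than MIR160B (-1.89), and only MIR160B was below MIR160A (-1.79), against a median of -0.66; MIR160C stood at -1.32, above 13 of the 85. These folds carry 1 added read, and because the MIR160 genes share the mature miRNA, their ranks may not be separate observations. In the triple mutant over ein5-1 ski2-3, MIR160A, MIR160B and MIR160C had log2 folds of -1.21, -1.11 and -0.90, where 8, 9 and 14 of 80 miRNA genes were lower and the median was -0.11. In ein5-1 ski2-3 over Col-0 they were near the middle, at -0.57, -1.02 and -0.45, with a median of -0.94 over 90 genes.

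**Figure D3:**
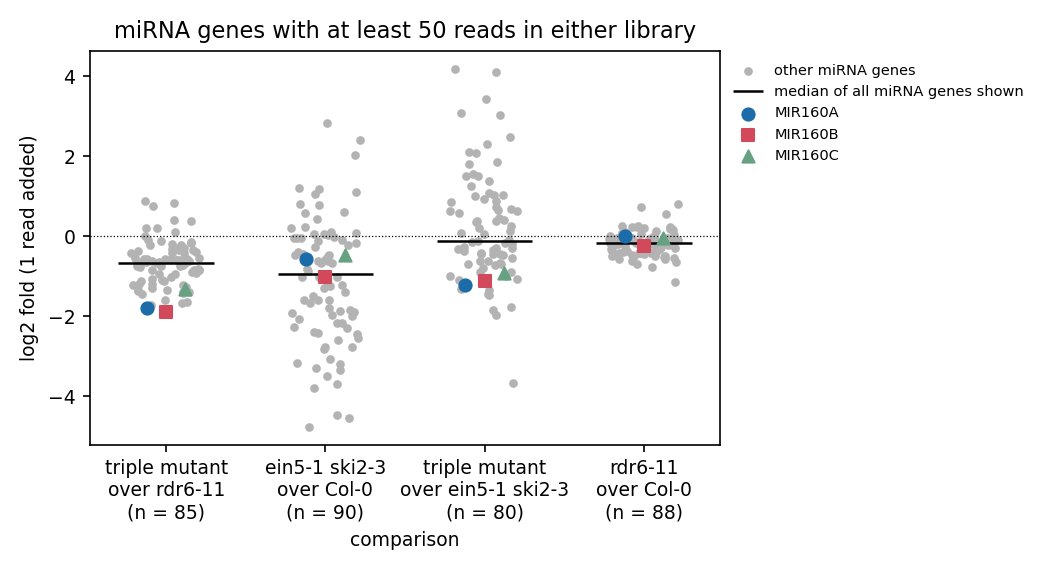
Log2 fold (1 read added to each count) of every miRNA gene with at least 50 reads in either library, in each comparison, with the MIR160 genes as coloured symbols and the median as a line. In the triple mutant over rdr6-11, MIR160A (-1.79) and MIR160B (-1.89) are at the bottom of the 85 genes, and in ein5-1 ski2-3 over Col-0 the 3 genes lie near the median of -0.94. The 3 genes share the mature miRNA, so their positions may not be separate observations.

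By level, the MIR160 genes ranked 53 to 72 of 178 miRNA genes in the triple mutant, 45 to 50 in ein5-1 ski2-3, 47 to 53 in rdr6-11 and 50 to 53 in Col-0. Many of the 178 had few reads. At least 50 reads were held by 75 of them in the triple mutant, 60 in ein5-1 ski2-3, 85 in rdr6-11 and 86 in Col-0.

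The rest of the ARF family, transcription factors that bind auxin response elements, was mostly near the floor. Of 23 ARF genes 7 had at least 10 reads in any library. Only 2 reached the 50 reads that a call needs, both through ein5-1 ski2-3, and both were called, against 57.2% of protein-coding genes called higher in ein5-1 ski2-3 than in Col-0 and 22.3% called lower in the triple mutant than in ein5-1 ski2-3. They were ARF10 and ARF6, an activating factor targeted by miR167. ARF6 held 8 reads in the triple mutant, 491 in ein5-1 ski2-3, 1 in rdr6-11 and 0 in Col-0. With 3 reads taken for the library at 0, ARF6 was 213-fold higher in ein5-1 ski2-3 than in Col-0, and the exact interval begins at 172. It was 86.7-fold lower in the triple mutant than in ein5-1 ski2-3 (43.6 to 202). ARF8, the other miR167 target, held 1 read in the triple mutant, 42 in ein5-1 ski2-3, 1 in rdr6-11 and 0 in Col-0, short of the 50 reads.

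**Figure D4:**
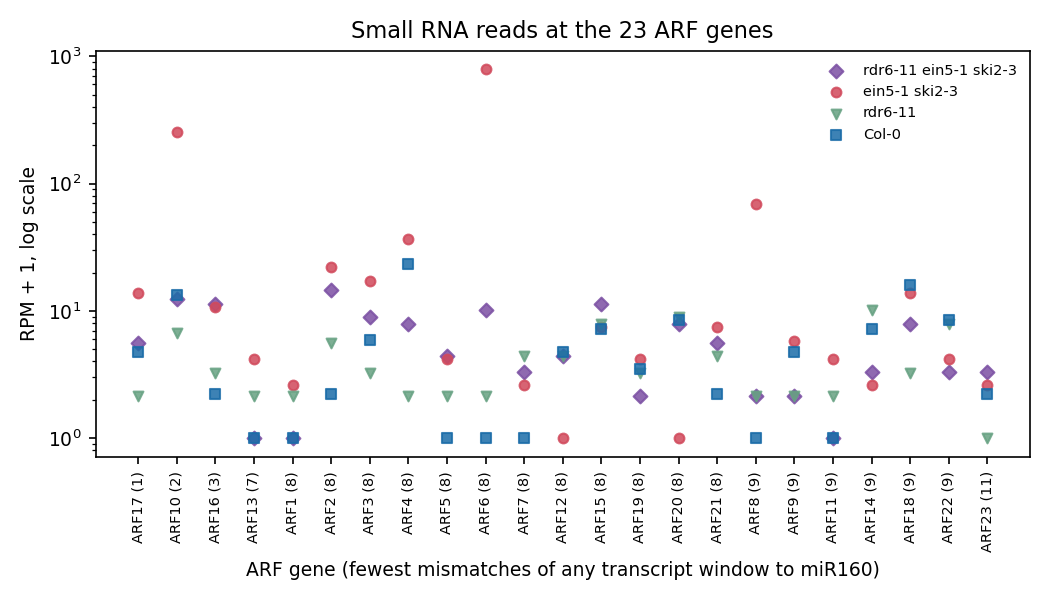
Small RNA level of the 23 ARF genes in each library (RPM with 1 added, log axis), ordered by the fewest mismatches to miR160, which stand in parentheses. ARF10 (254 RPM) and ARF6 (790 RPM) stand highest in ein5-1 ski2-3, while ARF17 and ARF16, with 1 and 3 mismatches, stay low.

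AGO1, which binds miR160 and is itself a miR168 target, held 8 reads in the triple mutant, 121 in ein5-1 ski2-3, 1 in rdr6-11 and 12 in Col-0. It was 13.1-fold higher in ein5-1 ski2-3 than in Col-0 (7.24 to 26.1) and 21.4-fold lower in the triple mutant than in ein5-1 ski2-3 (10.5 to 50.6). Among 7 genes of the miRNA pathway it was the only one with the 50 reads that a call needs, which it reached only through ein5-1 ski2-3. The shares called over protein-coding genes were again 57.2% higher and 22.3% lower. None of 5 genes of the RDR6 pathway reached 10 reads in any library. Among the 6 TIR1/AFB auxin receptors, the F-box proteins upstream of the ARFs, some of them targets of miR393, 3 had at least 10 reads in any library. AFB2 held 58 reads in the triple mutant, 445 in ein5-1 ski2-3, 18 in rdr6-11 and 143 in Col-0, 4.05-fold higher in ein5-1 ski2-3 than in Col-0 (3.34 to 4.92), a call that was lost under all 4 other scalings. AFB3 held 11 reads in the triple mutant, 127 in ein5-1 ski2-3, 3 in rdr6-11 and 78 in Col-0. Both were called lower in the triple mutant than in ein5-1 ski2-3, AFB2 by 10.8-fold (8.23 to 14.5) and AFB3 by 16.3-fold (8.81 to 33.5). In that comparison AFB3 reached 50 reads only through ein5-1 ski2-3. AFB2 and AFB3 were also called lower in rdr6-11 than in Col-0, against 9.09% of 154 protein-coding genes and with too few reads at ARF10 for a call, AFB2 by 8.64-fold (5.27 to 15.0) and AFB3 by 28.3-fold (9.32 to 140). Here both reached 50 reads only through Col-0.

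Other miRNA genes of auxin signalling, read beside MIR160, went several ways. Whether they share mature sequences was not examined here, so genes of the same family may not be separate observations. In the triple mutant over rdr6-11, MIR393A (0.388, 0.299 to 0.500), MIR167D (0.368, 0.356 to 0.380) and MIR167B (0.465, 0.431 to 0.501) were lower and MIR393B (1.31, 1.22 to 1.42) was higher under every scaling tried. MIR167A was lower on table totals (0.792, 0.752 to 0.835) but higher when scaled to the other miRNA genes, with a ratio of 1.16. MIR390A (1.15, 1.07 to 1.23) and MIR390B (1.15, 1.07 to 1.24) were higher on table totals, but with TMM their ratios were 0.956 (0.889 to 1.03) and 0.959 (0.890 to 1.03). MIR167C could not be told from 1 (0.784, 0.398 to 1.52). Of these 8 genes 7 reached 50 reads, and the 1 call was MIR167D, 4.80-fold lower in ein5-1 ski2-3 than in Col-0 (4.61 to 5.01), where 26.7% of miRNA genes were called lower. MIR390A (2.09, 1.94 to 2.26) and MIR390B (2.16, 1.99 to 2.33), whose miRNA triggers TAS3, were higher in ein5-1 ski2-3 than in Col-0. The median log2 fold of the list in the triple mutant over rdr6-11 was -0.34, against -0.65 over 132 miRNA genes with at least 10 reads in any library.

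Likeness of pattern was measured as Euclidean distance between log2 RPM values (1 read added), centred over the 4 libraries, among 874 loci with at least 50 reads in any library. Nearest to ARF10 were the proline dehydrogenase gene ERD5 (distance 0.964), the nitrate reductase gene NIA1 (1.00) and the vascular receptor kinase gene PXY (1.11). ERD5 held 2 reads in the triple mutant, 104 in ein5-1 ski2-3, 1 in rdr6-11 and 4 in Col-0. NIA1 held 25 reads in the triple mutant, 152 in ein5-1 ski2-3, 8 in rdr6-11 and 11 in Col-0. PXY held 7 reads in the triple mutant, 229 in ein5-1 ski2-3, 6 in rdr6-11 and 5 in Col-0. Like ARF10, each of these genes passed the filter of 50 reads only through ein5-1 ski2-3, so the filter itself favours this pattern. Nearest to the MIR160 sum were the pseudogenes AT4G20365 (0.202) and AT3G32383 (0.246) and the tRNA gene AT2G30450 (0.364). The MIR160 genes lay at 0.128 (MIR160A), 0.325 (MIR160B) and 0.289 (MIR160C) from their sum, to which each contributes.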

How the data were processed

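The authors deposited 1 table of read counts per locus for 4 small RNA libraries, 1 per genotype, with their RPKM values, per the file headers. Per the submitters' processing notes, the tools were CASAVA 1.8.2 and BWA and the build TAIR9, with no roles given. Trimming, read sizes kept, strand and the handling of reads with several matches: not given in the sources used here. With a total per library fitted so that deposited counts over RPKM gave whole lengths (within 0.01), each member had the same length in all libraries (2517, 3135 and 3106 for ARF10, ARF16 and ARF17, and 78, 80 and 80 for MIR160A, MIR160B and MIR160C); the table totals were 97.6% to 99.0% of the fitted ones.

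Counts were divided by the table total (RPM). Each comparison sets 1 library against 1, so no test was run; folds have exact conditional binomial intervals and shares exact Clopper-Pearson intervals (Python 3.11.15, scipy 1.17.1). PCR copies are not independent molecules. Calls and the interval were tried on simulated counts with counting error only and with more reads than ARF16 and ARF17 held. For the interval the mean counts were also above those of ARF10 in every library but ein5-1 ski2-3. Such trials cannot speak to differences between plants or libraries. All 6 members are given, and listed genes are named where called. The members and lists were chosen with earlier results of these data known. Sequences, coordinates and biotypes come from RefSeq TAIR10.1, matched by locus identifier (32835 of 33602 loci); no coordinates were taken from the deposited table. Alternatives were edgeR 4.0.16 TMM, median of ratios, reads at other miRNA genes, totals without organelle, rRNA and tRNA loci, and other call rules.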

Additional observations from a re-analysis of the deposited data

How the results depend on the processing

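ARF10 was called higher in ein5-1 ski2-3 against Col-0, but lower in the triple mutant against ein5-1 ski2-3, under all 4 other scalings, other minimums, a 2-fold rule and 5 added reads. The scalings shifted every log2 fold. For ein5-1 ski2-3 over Col-0 the shifts were -0.30 (TMM), -0.19 (median of ratios), -0.04 (other miRNA genes) and -0.07 (totals without organelle, rRNA and tRNA loci); for the triple mutant over ein5-1 ski2-3 0.00, -0.05, 0.78 and 0.59; for rdr6-11 over Col-0 -0.03, -0.04, 0.20 and 0.29; and for the triple mutant over rdr6-11 -0.26, -0.19, 0.54 and 0.23. The MIR160 fold, 0.632 for ein5-1 ski2-3 over Col-0, was 0.513 with TMM and 0.554 with median of ratios. For the triple mutant over ein5-1 ski2-3 it was 0.478, and 0.822 with other miRNA genes and 0.721 with the reduced totals. For rdr6-11 over Col-0 it was 0.944, and 1.09 and 1.15 with these. For the triple mutant over rdr6-11 it was 0.320, and 0.266 with TMM, 0.466 with other miRNA genes and 0.376 with the reduced totals. The summed ARF fold of 16.0 for ein5-1 ski2-3 over Col-0 was 4.55 without ARF10, and that of 0.0947 for the triple mutant over ein5-1 ski2-3 was 0.658 without ARF10 and 0.163 with other miRNA genes. Members called higher in ein5-1 ski2-3 over Col-0 numbered 2 with no minimum, ARF16 being added. With a 2-fold rule 1 member was lower in ein5-1 ski2-3 than in Col-0, 3 were lower in the triple mutant than in ein5-1 ski2-3 and 3 in the triple mutant than in rdr6-11, the last being 2 with TMM and 1 with median of ratios at 4-fold. The 3 members lower in the triple mutant than in ein5-1 ski2-3 were ARF10, MIR160A and MIR160B. Shares of all loci called under these other rules and scalings were not computed, so these counts have no background beside them. On table totals the median miRNA gene with at least 50 reads was 1.92-fold lower in ein5-1 ski2-3 than in Col-0. It was 1.08-fold lower in the triple mutant than in ein5-1 ski2-3 and 1.59-fold lower than in rdr6-11. No paired analysis was possible because each genotype has 1 library. At 1 to 9 reads, the intervals of ARF16 and ARF17 alone took in 1 in each of the 4 comparisons.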

Other observations

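The locus lengths implied for the MIR160 genes, 78 nt for MIR160A and 80 nt for MIR160B and MIR160C, were shorter than the annotated TAIR10.1 hairpins of 85, 89 and 89 nt. At the ARF genes, where windows of 21 nt were taken over all annotated exons, 32 of 2843 at ARF10, 8 of 2434 at ARF16 and 10 of 2926 at ARF17 occurred more than once in the genome.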
